A study of Homo sapiens with 12 samples.

Results

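The phagocyte NADPH oxidase was examined here through 6 of its genes, CYBB, CYBA, NCF1, NCF4, RAC1 and RAC2. They were taken by symbol from the 58288 genes of the count table, and were chosen with earlier results of these data known. All 6 had a row and passed the filter on low counts in both cell types. The near-identical copies of NCF1, named NCF1B and NCF1C, are given beside them.

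The oxidase of phagocytes moves electrons from NADPH across a membrane to oxygen and so makes superoxide, the first product of the respiratory burst. Its catalytic core is cytochrome b558, a membrane pair of gp91phox (CYBB, also called NOX2) and p22phox (CYBA). In resting cells the cytosolic subunits, among them the organizer p47phox (NCF1) and p40phox (NCF4), wait in the cytosol, and they join the core with a GTP-bound Rac protein when the cell is activated. Neutrophils use mainly RAC2, and loss of CYBB, CYBA, NCF1 or NCF4 underlies chronic granulomatous disease. HL-60 cells gain the capacity for a respiratory burst as they mature towards granulocytes.

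Total RNA depleted of ribosomal RNA was sequenced from HL-60/S4 cells, an established human promyelocytic leukemia line, at 8 passages. Promyelocytes were left undifferentiated, and granulocytes were obtained by culture for 4 days with ATRA, all-trans retinoic acid, at 1 µM. Each form received TNF-α at 16 ng/ml or the same volume of water as vehicle for 2 hr, and all cells were in medium supplemented with calcium. The 4 groups (promyelocytes with vehicle or TNF-α, granulocytes with vehicle or TNF-α) had 3 libraries each, from separate flasks of 1 cell line, so that the p-values measure the spread between flasks. The granulocytes are ATRA-treated leukemia cells and not blood neutrophils. The study ran the 2 cell forms as separate experiments, so cell form and experiment cannot be told apart. Differences in level between promyelocytes and granulocytes are therefore described without a test. The difference between their responses to TNF-α was tested, but there too cell form cannot be told from experiment. The study's methods also give a higher cell density for undifferentiated than for differentiated cells.

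The libraries held 22829189 to 31895061 assigned read pairs, so that 3 read pairs, the level below which no gene was read as present, corresponded to 0.0946 to 0.136 CPM, the unit used for levels here (CPM scale each library's read pairs to a common total). TNF and NFKBIA, textbook targets of TNF-α signaling, rose in both cell forms with no overlap between groups. The summed level of 6 genes of ATRA granulocytes was 40.39 to 45.37 CPM in vehicle promyelocytes and 1745 to 1869 CPM in vehicle granulocytes, and that of 5 promyelocyte granule genes was 7321 to 8147 CPM and 2134 to 2346 CPM. The label of granulocyte had a limit, as LTF, CAMP, LCN2 and MMP8, which encode secondary granule proteins of mature neutrophils, together reached at most 0.407 CPM in any library. Of 4 monocyte and macrophage genes, MARCO had no read and CD14 and CD163 had at most 12 read pairs in any library, while CSF1R averaged 49.73 CPM in vehicle granulocytes. Genes of 5 other lineages summed to at most 5.802 CPM.

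Before the values, the sequences at the start of CYBB, NCF1 and CYBA are shown. They were taken by availability and not by response. Each run is the 120 bases directly before the transcription start (RefSeq, GRCh38.p14, 5′ to 3′ on the strand of the gene), and capitals mark GAGGAA, the core bound by PU.1 and other ETS factors, or its complement. The entries for these 3 genes were the ones found for the 6 members.
CYBB promoter, chrX:37779939-37780058, plus strand: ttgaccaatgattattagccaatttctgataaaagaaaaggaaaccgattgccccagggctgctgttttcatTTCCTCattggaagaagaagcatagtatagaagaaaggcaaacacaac
NCF1 promoter, chr7:74773891-74774010, plus strand: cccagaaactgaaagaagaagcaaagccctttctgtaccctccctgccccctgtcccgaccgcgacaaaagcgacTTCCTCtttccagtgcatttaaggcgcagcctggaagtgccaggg
CYBA promoter, chr16:88651054-88651173, minus strand: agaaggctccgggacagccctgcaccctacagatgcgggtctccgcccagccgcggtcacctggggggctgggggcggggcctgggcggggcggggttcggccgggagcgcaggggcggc
The complement of GAGGAA lay 48 to 43 bases before the RefSeq start in CYBB and 45 to 40 bases before it in NCF1. It was not in the window of CYBA. The gene spans used for counting, given below, begin upstream of these RefSeq starts, at chrX:37780011 (CYBB), chr7:74773962 (NCF1) and chr16:88651152 (CYBA). The marked letters of CYBB and NCF1 therefore lie inside those spans. Over all 35116 promoter windows, which run from 250 bases before to 50 bases after the start, 27.9% held GAGGAA on either strand. The letters of the interferon response element, searched as GAAA, 2 bases of any kind and GAAA, were in the windows of CYBB and NCF1 and in 3.57% of all windows. CCAAT was in that of CYBB and in 34.6% of all windows. The NF-kB letters, GGGA, 1 base of any kind and TTTCC, and the AP-1 letters TGANTCA, in 0.558% and 7.71% of all windows on either strand, were in none of these 3 windows. These matches describe the letters and not bound sites.

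In promyelocytes, TNF-α raised CYBB 1.95-fold and NCF1 2.37-fold, while CYBA, NCF4, RAC1 and RAC2 did not pass the test. In granulocytes it raised NCF1 1.59-fold, CYBA 1.41-fold and RAC1 1.36-fold while NCF4 fell by 17.7%, with CYBB at a fold of 0.9996. Thus NCF1 was the 1 member that rose in both forms. The responses of CYBB, CYBA, NCF1 and RAC1 differed between the forms when the difference itself was tested. That test cannot tell cell form from experiment. Called genes made up 14.8% of the 16250 genes tested in promyelocytes (8.15% increased, 6.65% decreased), against 2 of 6 members. In granulocytes they made up 49.2% of 16944 genes (24.4% increased, 24.8% decreased), against 4 of 6 members, so that the share of members called was near the background there. Levels are given below as CPM after TMM normalization over the 12 libraries, and fold changes come from edgeR's quasi-likelihood test within each cell form, called at a Benjamini-Hochberg adjusted p under 0.05 over all genes tested. In such bulk RNA, a change in the share of cells that express a gene and a change of RNA per cell cannot be told apart.

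**Figure D1:**
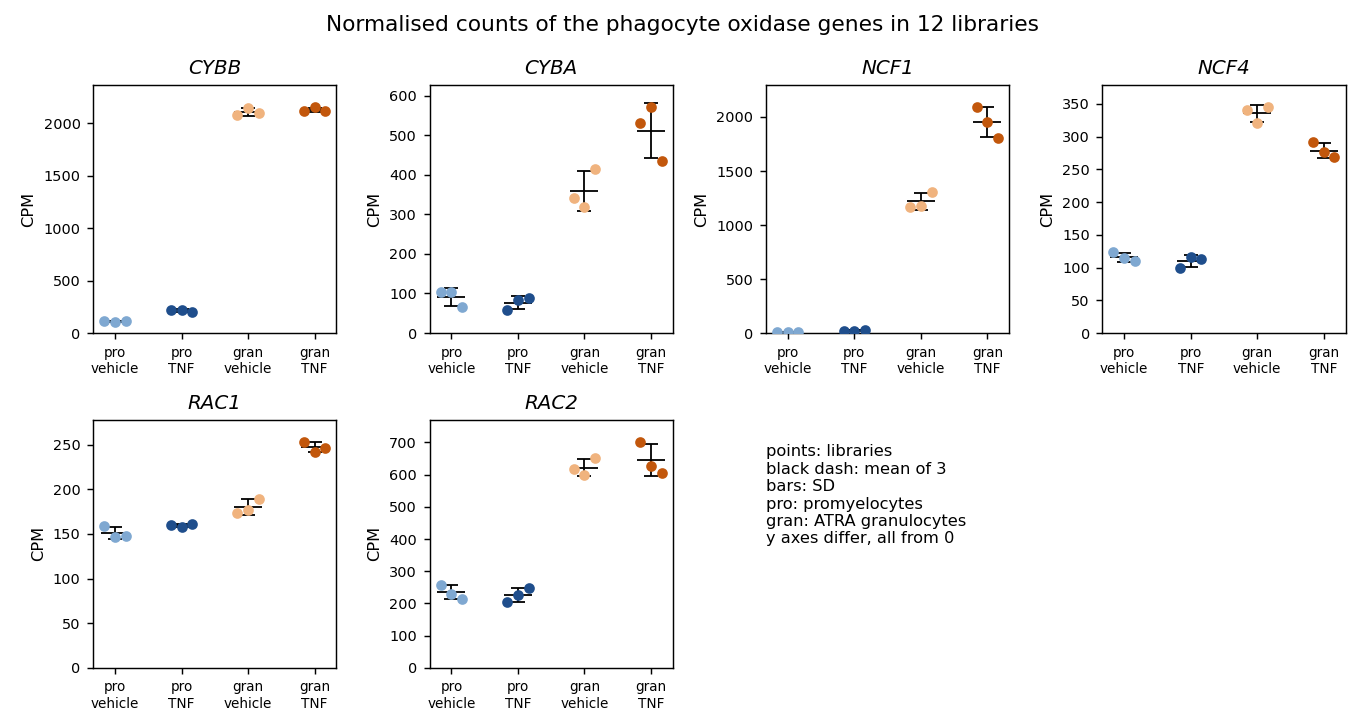
CPM (y axis, from 0, scaled per panel) of the 6 members in the 4 groups (x axis); points are libraries, dashes group means of 3 and bars SD. CYBB stood at 108.6 to 117.4 CPM in vehicle promyelocytes and 202.7 to 223.3 CPM with TNF-α, whereas its granulocyte groups overlapped at 2077 to 2152 CPM.

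CYBB encodes gp91phox, the flavin- and heme-bearing subunit that carries the electrons. The gene (ENSG00000165168.7; hg38, chrX:37780011-37813461, plus strand, 4423 exonic bases) read 117.4, 108.6 and 111.9 CPM in the vehicle promyelocytes and 221.3, 223.3 and 202.7 CPM in the TNF-α promyelocytes. Each TNF-α library was above each vehicle library, while the groups did not overlap for 30.9% of all genes tested there (13.7% with TNF-α above, 17.1% below). The log2 fold change was 0.96 ± 0.06 (SE, n = 3 per group; edgeR quasi-likelihood, Benjamini-Hochberg adjusted p = 2.06e-10). In granulocytes the same gene read 2077, 2148 and 2098 CPM with vehicle and 2115, 2152 and 2116 CPM with TNF-α. These groups overlapped, and the log2 fold change was -0.001 with a 95% interval of -0.11 to 0.10, which leaves out a rise of the size measured in promyelocytes. The difference of the responses (granulocytes minus promyelocytes, 12 libraries in 1 fit) was -0.92 ± 0.08 (SE) on the log2 scale (edgeR, adjusted p = 4.59e-10). The TNF-α level of promyelocytes, 215.8 CPM, remained far under the 2108 CPM of vehicle granulocytes. With scaling by library totals in place of TMM, the granulocyte value was -0.13 and passed the test (edgeR, adjusted p = 0.0228). That scaling also moved the median of all genes to -0.14, and the part of this shift in the call was not tested.

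CYBA encodes p22phox, the partner that stabilizes gp91phox and docks p47phox. The gene (ENSG00000051523.10; chr16:88643283-88651152, minus strand, 3357 exonic bases) read 103.7, 104 and 65.12 CPM in vehicle promyelocytes and 57.5, 83.29 and 89.39 CPM with TNF-α. The groups overlapped, vehicle replicate 3 and TNF-α replicate 1 being the low libraries of their groups. The log2 fold change of -0.22 ± 0.14 (SE) did not pass the test (edgeR, adjusted p = 0.355; 95% interval -0.51 to 0.08). This verdict rested on 1 library, since without vehicle replicate 3 the value was -0.40 (edgeR, adjusted p = 0.00992), and without TNF-α replicate 1 it was -0.05. Without the filter on low counts it was -0.21 and passed (edgeR, adjusted p = 0.019). In granulocytes CYBA read 341.4, 319.3 and 415.1 CPM with vehicle and 530.5, 569.9 and 433.9 CPM with TNF-α. All TNF-α libraries were above all vehicle libraries, replicate 3 of each group being the closest pair. The log2 fold change was 0.50 ± 0.07 (SE, n = 3 per group; edgeR, adjusted p = 3.51e-07). It was 0.32 after correction for GC content and length, CYBA having 63.7% GC in its exons. The difference of the responses was 0.76 ± 0.20 (SE) on the log2 scale (edgeR, adjusted p = 0.00531). It was 0.48 after the GC and length correction, and DESeq2 gave 0.70 (adjusted p = 0.0882), which did not pass.

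The membrane pair therefore did not move together. The ratio of CYBB to CYBA, from CPM per kilobase of exon as for each ratio below, was 0.792 to 1.304 in vehicle promyelocytes and 1.72 to 2.92 with TNF-α. In granulocytes it was 3.84 to 5.11 with vehicle and 2.87 to 3.70 with TNF-α. TNF-α libraries thus had the higher ratios in promyelocytes and the lower ones in granulocytes, with no overlap in either form.

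NCF1 encodes p47phox, the organizer whose phosphorylation opens the way to assembly. Its reads cannot be fully separated from those of NCF1B and NCF1C, pseudogene copies that flank it on chromosome 7. Of the 1774 windows of 150 bases in the NCF1 exons, 59.1% occurred unchanged in 1 of the copies or both. Each window lay within a single exon, so exons shorter than 150 bases and sequence across splice junctions were left out. The share is thus not that of ambiguous read pairs. A read pair that fits several places was counted at its primary one. The best known difference is at the start of the second exon, where the copies lack a GT unit, a loss that shifts the reading frame. The 3 places are printed below from hg38, on the strand of each gene, with 20 bases before and after the repeat and the GT units in capitals, as they show how little separates the genes.
NCF1, chr7:74777247-74777290, plus strand: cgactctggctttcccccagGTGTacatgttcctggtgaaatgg
NCF1B, chr7:73223858-73223899, plus strand: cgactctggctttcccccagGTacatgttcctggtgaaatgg
NCF1C, chr7:75168689-75168730, minus strand: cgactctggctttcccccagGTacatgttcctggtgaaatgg
The flanks were identical in the 3 genes, with 2 GT units in NCF1 and 1 in each copy.

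NCF1 (ENSG00000158517.13; chr7:74773962-74789315, plus strand, 3462 exonic bases) read 10.59, 10.26 and 9.496 CPM in vehicle promyelocytes and 22.95, 22.62 and 25.15 CPM with TNF-α. The groups were well apart, from 275 to 324 read pairs with vehicle and 610 to 798 with TNF-α. The log2 fold change was 1.245 ± 0.088 (SE; edgeR, adjusted p = 1.86e-09), rank 252 among the increases of 16250 genes. In granulocytes NCF1 read 1171, 1177 and 1306 CPM with vehicle and 2088, 1955 and 1810 CPM with TNF-α. Again no library overlapped, and the log2 fold change was 0.67 ± 0.06 (SE; edgeR, adjusted p = 1.60e-12). The difference of the responses was -0.54 ± 0.10 (SE) on the log2 scale (edgeR, adjusted p = 0.000186), so the rise was smaller in granulocytes as a fold, though from a vehicle level 120.4 times as high.

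The copies gave similar changes. NCF1B rose by a log2 fold change of 1.008 in promyelocytes and 0.82 in granulocytes, and NCF1C by 0.99 and 0.84. With the 3 genes summed, the vehicle promyelocytes read 20.85, 20.01 and 18.02 CPM and the TNF-α promyelocytes 41.13, 42.45 and 43.4 CPM. In granulocytes the sum read 2537, 2497 and 2798 CPM with vehicle and 4678, 4527 and 4133 CPM with TNF-α. The sum rose in both forms, by 1.13 ± 0.07 and 0.75 ± 0.06 (SE) on the log2 scale (edgeR, adjusted p = 3.52e-10 and 1.06e-13). The difference of its responses was -0.34 ± 0.09 (edgeR, adjusted p = 0.00792), less than the -0.54 of NCF1 alone, and neither NCF1B (-0.15) nor NCF1C (-0.12) passed that test by itself. After the GC and length correction both passed (-0.41 and -0.39; edgeR, adjusted p = 0.00414 and 0.00991). The share of the summed reads that fell on NCF1 was 50.78 to 52.68% in vehicle promyelocytes, 53.28 to 57.95% with TNF-α, 46.14 to 47.13% in vehicle granulocytes and 43.19 to 44.63% with TNF-α. That share thus moved up in one form and down in the other, and its part in the difference of the NCF1 responses was not tested.

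**Figure D2:**
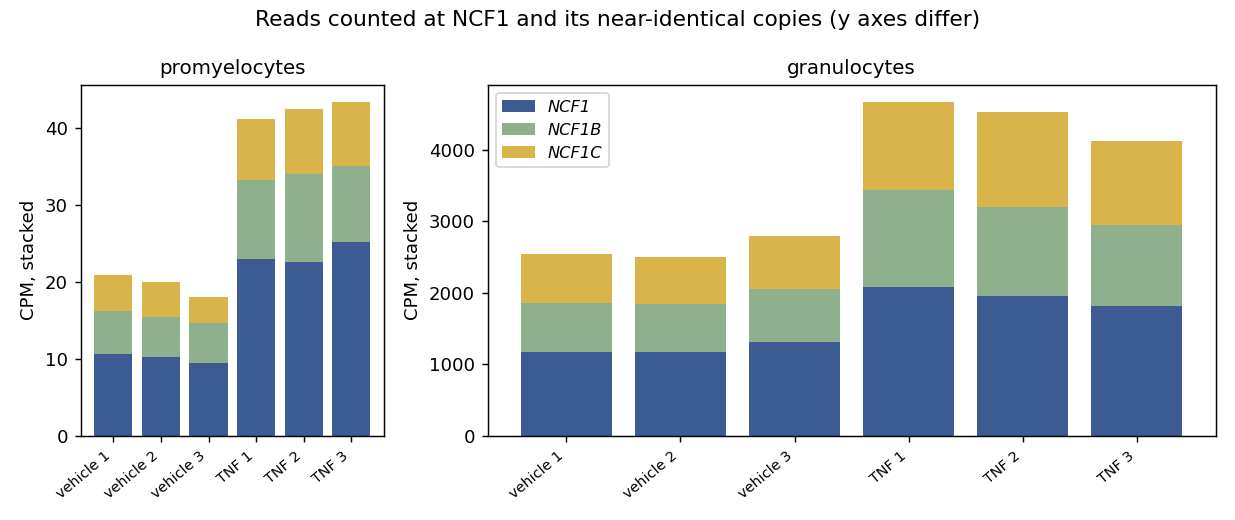
Stacked CPM (y axes from 0 and different per panel) counted at NCF1, NCF1B and NCF1C in each library (x axis) of promyelocytes and granulocytes. The summed bars reach 18.02 to 43.4 CPM in promyelocytes and 2497 to 4678 CPM in granulocytes, with TNF-α bars above vehicle bars in both.

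NCF4 encodes p40phox, which binds phosphatidylinositol 3-phosphate on phagosomes. The gene (ENSG00000100365.14; chr22:36860988-36878015, plus strand, 1759 exonic bases) read 123.6, 114.5 and 109.9 CPM in vehicle promyelocytes and 99.5, 116.7 and 112.4 CPM with TNF-α. These groups overlapped (log2 fold change -0.06, 95% interval -0.19 to 0.08; edgeR, adjusted p = 0.623). In granulocytes it read 340.8, 320.9 and 344.5 CPM with vehicle and 291.9, 275.8 and 268.6 CPM with TNF-α. All TNF-α libraries were below all vehicle libraries, and NCF4 was the 1 member that fell, by 0.28 ± 0.05 (SE) on the log2 scale (edgeR, adjusted p = 8.95e-06). The difference of the responses, -0.18 ± 0.09, did not pass in the 12-library fit (edgeR, adjusted p = 0.121). With DESeq2 size factors it was -0.24 and passed (edgeR, adjusted p = 0.0426), as it did in 5 of the other alternatives and without TNF-α promyelocyte replicate 1 (-0.25).

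These cytosolic subunits, which work in 1 complex, thus differed in their response in granulocytes. The ratio of NCF1 to NCF4 was 1.75 to 1.93 with vehicle and 3.42 to 3.63 with TNF-α. In promyelocytes the ratio of NCF1 to NCF4 was 0.0435 to 0.0456 with vehicle and 0.0985 to 0.117 with TNF-α. The ranges did not overlap in either form.

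RAC1 and RAC2 encode small GTPases of which 1, in its GTP form, completes the oxidase. RAC1 is found in most cell types, and RAC2 is restricted to blood cells. RAC1 (ENSG00000136238.17; chr7:6374523-6403977, plus strand, 3114 exonic bases) read 159.4, 146.6 and 147.4 CPM in vehicle promyelocytes and 160, 157.7 and 161.3 CPM with TNF-α. These groups overlapped and the log2 fold change of 0.10 (95% interval -0.01 to 0.22) did not pass (edgeR, adjusted p = 0.249). In granulocytes RAC1 read 173.4, 177.3 and 189.7 CPM with vehicle and 252.8, 241.9 and 246.4 CPM with TNF-α. The groups were well apart, and the log2 fold change was 0.44 ± 0.05 (SE; edgeR, adjusted p = 1.20e-09). The difference of the responses was 0.38 ± 0.07 (SE) on the log2 scale (edgeR, adjusted p = 0.000348), and 0.22 with scaling by library totals.

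RAC2 (ENSG00000128340.14; chr22:37225261-37244448, minus strand, 2532 exonic bases) read 257.6, 230.8 and 214.8 CPM in vehicle promyelocytes and 204.9, 225 and 248.7 CPM with TNF-α. In granulocytes it read 616.2, 598.1 and 651.8 CPM with vehicle and 700.8, 626.2 and 606.1 CPM with TNF-α. The groups overlapped in both forms, and the log2 fold changes were -0.03 (95% interval -0.17 to 0.12) and 0.04 (95% interval -0.07 to 0.14), neither of which passed (edgeR, adjusted p = 0.852 and 0.605). After correction for GC content and length the granulocyte value was -0.11 and passed (edgeR, adjusted p = 0.026), a call lost when the replicate block was added (adjusted p = 0.0695). The ratio of RAC2 to RAC1 was 4.15 to 4.37 in vehicle granulocytes and 3.03 to 3.41 with TNF-α, ranges that did not overlap, whereas in promyelocytes it was 1.79 to 1.99 and 1.58 to 1.90, which did.

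**Figure D3:**
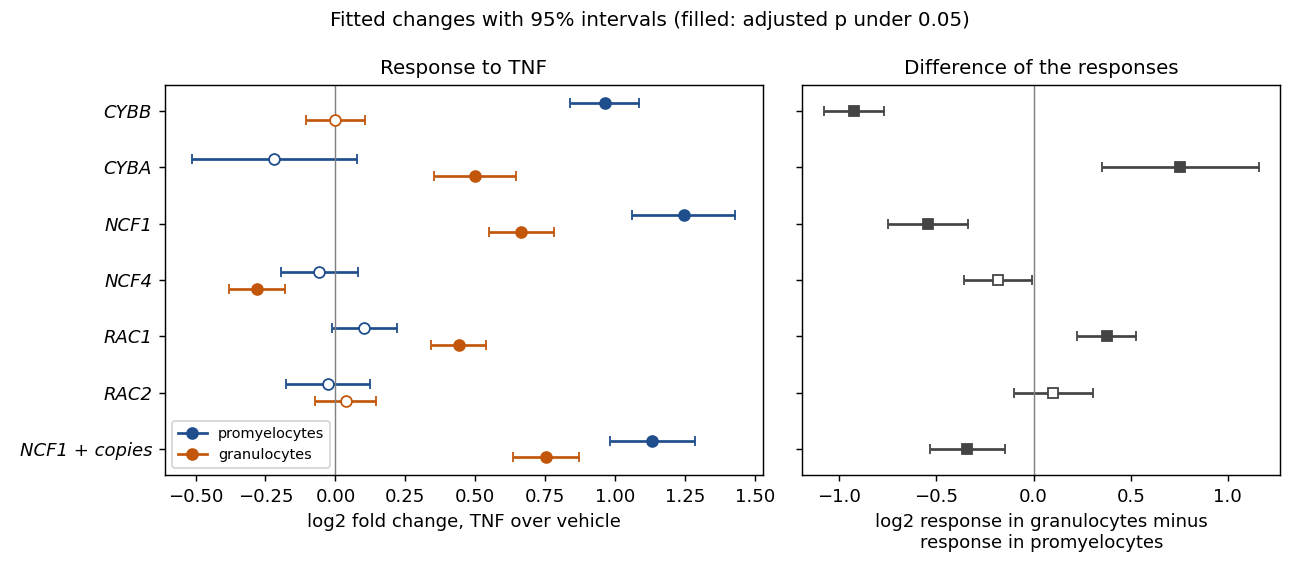
Fitted log2 fold changes of TNF-α over vehicle in each cell form (left, x axis) and the difference of the responses, granulocytes minus promyelocytes (right, x axis), for each gene (y axis), with 95% intervals from 3 libraries per group; filled symbols have an adjusted p under 0.05. CYBB was at 0.96 in promyelocytes and -0.001 in granulocytes, and RAC1 at 0.10 and 0.44.

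In the test of the difference, 4 of 6 members passed, where 24% of 18124 genes did (14.1% with the higher response in granulocytes, 9.88% with the lower). For CYBB and NCF1 the response was lower in granulocytes, and for CYBA and RAC1 it was higher. The 4 members that moved in granulocytes were CYBA, NCF1, NCF4 and RAC1, and of these NCF1 alone was also called in promyelocytes. The members called in either form were also the ones whose groups did not overlap, 2 of 6 in promyelocytes and 4 of 6 in granulocytes, where 30.9% and 55.1% of all genes tested had such groups (in granulocytes 28.4% with TNF-α above and 26.7% below). Some cell type markers moved with TNF-α as well. The 5 promyelocyte granule genes summed to 7321 to 8147 CPM with vehicle and 6065 to 6966 CPM with TNF-α in promyelocytes. There the 6 granulocytic genes also went from 40.39 to 45.37 CPM down to 36.09 to 39.68 CPM. Of their means, those of CSF3R (21.69 and 15.63 CPM) and ITGAX (4.715 and 4.392 CPM) were lower with TNF-α. Those of CD38 (8.509 and 10.32 CPM), ITGAM (6.405 and 6.465 CPM), FPR1 (0.7023 and 0.7238 CPM) and TGM2 (0.5938 and 0.7082 CPM) were higher. In promyelocytes the 4 monocyte and macrophage genes went from 3.863 to 4.73 CPM down to 2.837 to 3.838 CPM. The 4 monocyte and macrophage genes went from 49.1 to 51.28 CPM down to 30.03 to 33.82 CPM in granulocytes, nearly all of it CSF1R, and the 6 granulocytic genes stood at 1745 to 1869 CPM with vehicle and 1869 to 1964 CPM with TNF-α. That sum held unequal parts, as the means of CD38 (1165 and 1031 CPM), ITGAM (297.7 and 251.7 CPM) and CSF3R (46.58 and 38.06 CPM) were lower with TNF-α, and those of TGM2 (171.5 and 370.1 CPM), ITGAX (131.5 and 210.7 CPM) and FPR1 (5.765 and 8.331 CPM) were higher. The part of these shifts in the changes of the oxidase genes was not tested.

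Across the cell forms, the oxidase genes were the more abundant in granulocytes. The 6 members took 0.0712% ± 0.0037 (SD, n = 3) of all read pairs in vehicle promyelocytes and 0.506% ± 0.012 in vehicle granulocytes, and 0.0814% ± 0.0030 and 0.547% ± 0.014 after TNF-α. As ratios of geometric means, from the difference of mean log2 CPM, vehicle granulocytes had 120.4 times the NCF1 of vehicle promyelocytes and 18.7 times the CYBB. The ratios were 4.01 for CYBA, 2.90 for NCF4, 2.66 for RAC2 and 1.19 for RAC1. The signed log2 difference, granulocytes minus promyelocytes, was above that of 99.83% of the 18124 genes for NCF1 and 98.53% for CYBB. For RAC1 it was above that of 59.59%. Genes lower in granulocytes count as below in these shares, which do not rank the size of the differences. With NCF1 and its copies summed, the ratio was 133.1. The promyelocytes therefore held reads of each of the 6 members, the scarcest being NCF1.

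To compare genes with each other, CPM were divided by the exonic length in kilobases. In vehicle promyelocytes the order was RAC2 (92.56 CPM per kilobase), NCF4 (65.92), RAC1 (48.55), CYBA (27.09), CYBB (25.46) and NCF1 (2.922), and in this order CYBA and CYBB were the only neighbours whose libraries overlapped. With TNF-α, CYBB reached 48.78 CPM per kilobase and passed CYBA, at 22.86, while NCF1 reached 6.81. In vehicle granulocytes the order was CYBB (476.5), NCF1 (351.7), RAC2 (245.6), NCF4 (190.7), CYBA (106.8) and RAC1 (57.84), with no overlap between neighbours. With TNF-α, NCF1 (563.5) stood above CYBB (481), and NCF4 (158.5) and CYBA (152.4) overlapped. These NCF1 levels carry the uncertainty of the shared reads.

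**Figure D4:**
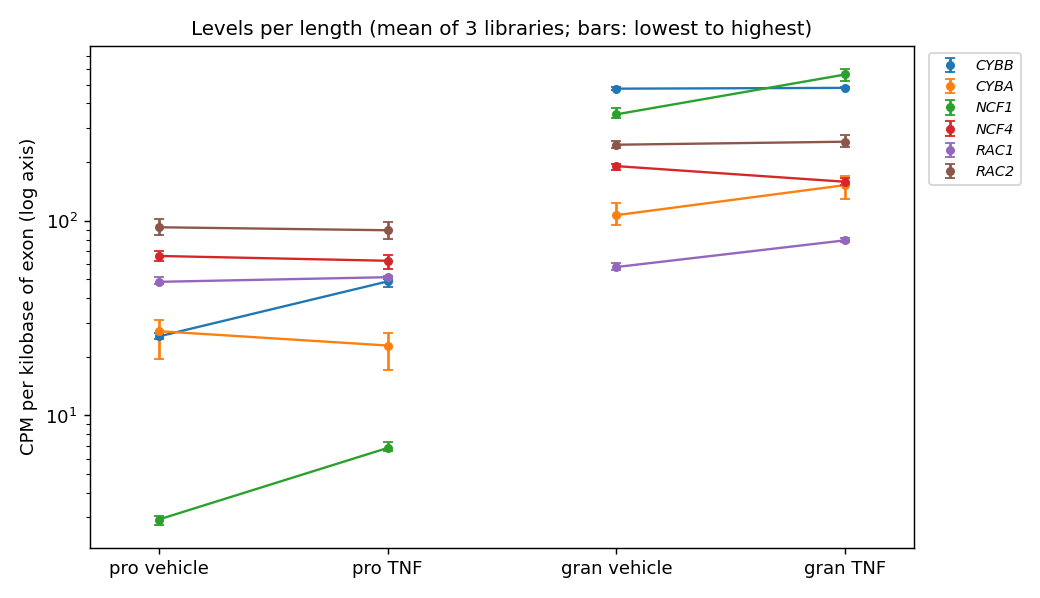
Mean CPM per kilobase of exon (y axis, log scale) of the 6 members in the 4 groups (x axis); bars run from the lowest to the highest of 3 libraries, and lines join vehicle to TNF-α within a cell form. NCF1 was the lowest in vehicle promyelocytes, at 2.922 CPM per kilobase, and the highest in TNF-α granulocytes, at 563.5.

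Genes with the most similar profile over the 12 libraries were found by the root mean square difference of log2 CPM, each gene centred on its own mean, among 11801 genes. For NCF1 they were its own copies NCF1B (0.21) and NCF1C (0.35) and DAPK2 (0.31), a death-associated kinase. For CYBB they were DOCK10 (0.21), RPL7L1P3 (0.23) and SLC7A11 (0.23), the last encoding the cystine transporter, and for CYBA SHOX2 (0.18), PTMS (0.19) and CCDC92 (0.20). NCF4 was nearest to OSTF1 (0.06), FIG4 (0.09) and TES (0.09), RAC1 to RMC1 (0.04), PLEKHM2 (0.06) and BTBD3 (0.06), and RAC2 to TOLLIP (0.05), APLP2 (0.07) and CAP1 (0.07). These values describe likeness of pattern, and the step between the cell forms is part of each pattern, so members with small changes have small values.

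Around the members, 5 lists of genes of the same pathway were read in the same fits. The first held 14 homologues and assembly factors. NOX1, NOX3 and NOX4 had no read in any library, which allows up to 3 read pairs each, and NOX5, DUOX1, DUOX2, DUOXA1, DUOXA2 and NOXO1 averaged at most 0.133 CPM in any group, so CYBB was the 1 catalytic NOX gene with appreciable reads. NOXA1, an activator of NOX1, averaged 1.28 CPM in vehicle granulocytes and 0.163 CPM in vehicle promyelocytes. Of 4 list genes tested in promyelocytes, edgeR and DESeq2 each called 0, although 4 had an unadjusted p under 0.05 in edgeR. Of 5 tested in granulocytes 1 rose, RAP1B, a small GTPase of the Rap family (log2 fold change 0.31 ± 0.05 SE; edgeR, adjusted p = 7.10e-07). Another fell, CYBC1, the chaperone needed for gp91phox to mature (-0.27 ± 0.05; adjusted p = 1.97e-05). The list's median log2 fold change was -0.02 in promyelocytes and 0.19 in granulocytes, beside -0.009 and -0.005 over all genes tested, of which 14.8% and 49.2% were called. RAC3, a neural Rac paralog named here after its values were seen, averaged 16.18 CPM in vehicle promyelocytes and 1.641 CPM in vehicle granulocytes, opposite in direction to RAC2.

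The second list held 13 exchange factors, inhibitors and GTPase-activating proteins that set how much Rac is in its GTP form. Of the 12 tested, 3 fell and 9 did not pass in promyelocytes, and 4 rose and 5 fell in granulocytes (medians -0.001 and -0.01), while 14.8% and 49.2% of all genes tested were called in these forms. ARHGAP25, a Rac GTPase-activating protein of phagocytes, fell in promyelocytes from 27.09 ± 1.006 to 13.87 ± 0.44 CPM (SD, n = 3; log2 fold change -0.94 ± 0.08 SE, edgeR adjusted p = 2.21e-08), and its granulocyte value of 0.06 did not pass. In granulocytes the exchange factor VAV2 rose by 0.46 ± 0.08 and VAV3 fell by 0.32 ± 0.06 on the log2 scale (edgeR, adjusted p = 3.06e-06 and 6.54e-05).

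The next list held 17 genes for kinases upstream of assembly, among them the regulatory subunit PIK3R5. Of these, 4 rose and 1 fell in promyelocytes, and 5 rose and 10 fell in granulocytes. The medians were 0.01 and -0.19, beside 14.8% and 49.2% of all genes called. PRKCD, protein kinase C delta, which phosphorylates p47phox, rose in both forms (0.32 ± 0.06 and 0.74 ± 0.05; edgeR, adjusted p = 0.000844 and 6.96e-15). PRKCB, protein kinase C beta, fell by 0.50 ± 0.05 in granulocytes (edgeR, adjusted p = 9.01e-11). Its fall of 0.20 in promyelocytes (adjusted p = 0.0285) was lost when any of 4 libraries, the 3 vehicle libraries or TNF-α replicate 2, was left out, and with a replicate block (adjusted p = 0.0973). PAK1, a kinase activated by Rac, fell in granulocytes from 625.1 ± 4.4 to 415.6 ± 10.96 CPM (SD; log2 fold change -0.60 ± 0.05 SE, edgeR adjusted p = 2.84e-13). PIK3R5, a regulatory subunit of phosphoinositide 3-kinase gamma, rose in promyelocytes by 0.74 ± 0.09 (edgeR, adjusted p = 2.44e-06) and in granulocytes by 0.62 (adjusted p = 3.52e-13).

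Of 20 transcription factors known at oxidase promoters, 16 were tested in promyelocytes, where 6 rose and 3 fell, and 17 in granulocytes, where 9 rose and 4 fell, with medians of 0.08 and 0.17. Of all genes tested, 14.8% were called in promyelocytes and 49.2% in granulocytes. NFKB1, the NF-kB p105 and p50 gene, rose most in promyelocytes (1.38 ± 0.06; edgeR, adjusted p = 2.77e-12) and also rose in granulocytes (2.02; adjusted p = 1.85e-28). IRF8, a myeloid interferon regulatory factor that acts on CYBB, was scarce in vehicle granulocytes at 0.331 ± 0.124 CPM and reached 10.29 ± 1.12 CPM with TNF-α (SD, n = 3; log2 fold change 4.90 ± 0.21 SE, edgeR adjusted p = 3.08e-21). In promyelocytes IRF8 went from 2.15 ± 0.21 to 3.55 ± 0.50 CPM (0.75; adjusted p = 0.00871). SPI1, which encodes PU.1 and is named here after its values were seen, rose from 217.5 ± 14.1 to 422.3 ± 36.9 CPM in granulocytes (0.94 ± 0.06; adjusted p = 4.44e-17). Its value of 0.25 in promyelocytes (adjusted p = 0.0249) no longer passed in 4 of 6 fits that each left out 1 library, those without vehicle replicate 2 or 3 or TNF-α replicate 2 or 3. CEBPE, a factor of late granulocyte maturation, fell in granulocytes from 211.2 ± 13.7 to 91.92 ± 8.13 CPM (-1.22 ± 0.06, edgeR adjusted p = 2.60e-20). CEBPE also fell in promyelocytes (-0.46, edgeR adjusted p = 1.42e-05). CEBPA fell most in promyelocytes (-0.63 ± 0.06, edgeR adjusted p = 3.27e-07) and also fell in granulocytes (-0.44, edgeR adjusted p = 1.72e-08).

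The last list held 9 genes for charge compensation, NADPH supply and the handling of products, of which 8 were matched and tested. In promyelocytes 1 rose and 4 fell, and in granulocytes 4 rose and 2 fell, with medians of -0.20 and 0.06, against a called share over all genes of 14.8% and 49.2%. ME1, the cytosolic malic enzyme that makes NADPH, rose in granulocytes from 11.86 ± 0.91 to 91.78 ± 5.93 CPM (SD, n = 3; log2 fold change 2.93 ± 0.07 SE, edgeR adjusted p = 9.94e-30). In promyelocytes ME1 had 0.26 ± 0.07 (adjusted p = 0.0128), a call lost without vehicle replicate 2 (0.24) or TNF-α replicate 1 (0.21) and after the GC and length correction (0.16). IDH1, which also makes NADPH, fell in both forms, by 0.41 ± 0.06 in promyelocytes (edgeR, adjusted p = 6.46e-05) and by 0.39 in granulocytes (adjusted p = 1.76e-08). CAT, catalase, fell in granulocytes (-0.49 ± 0.05; edgeR, adjusted p = 3.94e-11). HVCN1, the proton channel that balances the charge the oxidase moves, is named here after its values were seen. It fell in promyelocytes and rose in granulocytes, with log2 fold changes of -0.29 and 0.76 (edgeR, adjusted p = 0.00642 and 5.96e-07). HVCN1 averaged 30.72 CPM with vehicle and 24.64 CPM with TNF-α in promyelocytes. In granulocytes it averaged 6.067 and 10.3 CPM, below both promyelocyte groups.

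**Figure D5:**
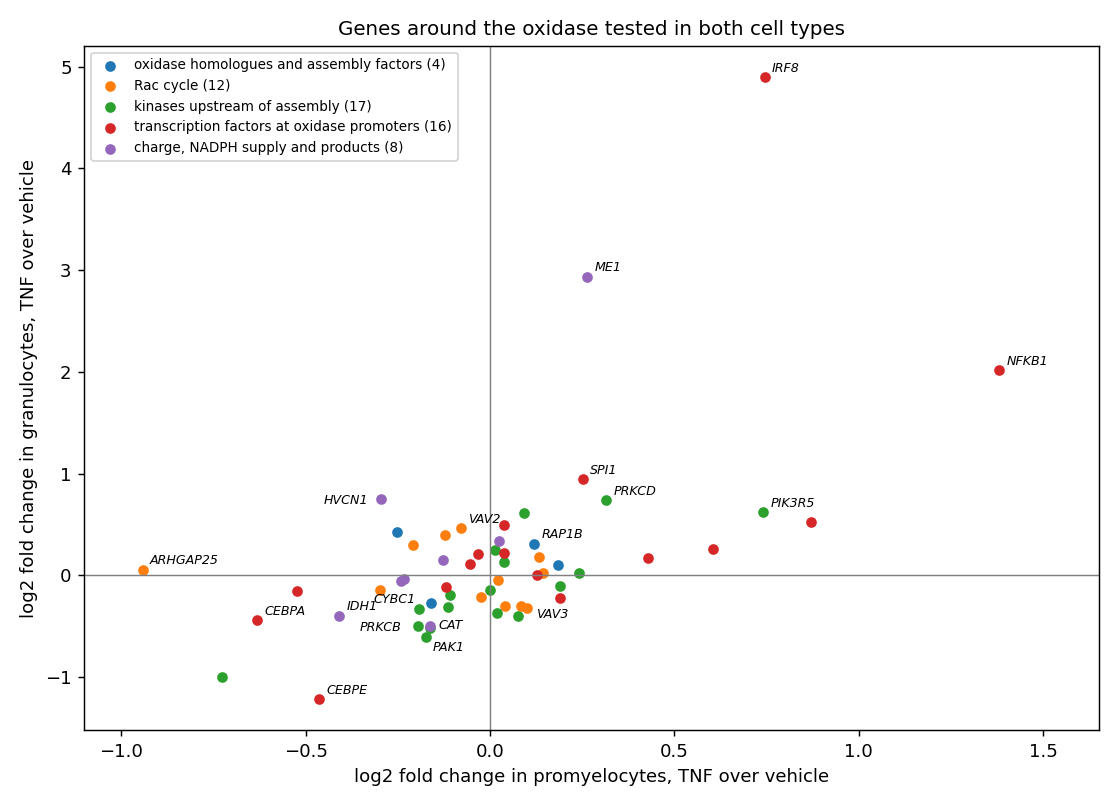
Log2 fold change of TNF-α over vehicle in promyelocytes (x axis) and granulocytes (y axis) for the list genes tested in both forms; colours mark the lists, with the number of genes in brackets, and points are single genes. IRF8 (0.75 and 4.90) and ME1 (0.26 and 2.93) lie above the others, ARHGAP25 (-0.94 and 0.06) at the left edge, and HVCN1 (-0.29 and 0.76) in the upper left.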

How the data were processed

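Per the labels and the study's methods, the authors aligned paired reads to hg38 with STAR 2.5.3a and deposited raw counts per gene from featureCounts 1.5.2 (GENCODE 27, reverse-stranded, primary alignments, properly paired, not chimeric). Multi-mapping read pairs were thus kept at 1 place, which bears on NCF1 and its copies. The deposited Length column gave the exonic bases. Gene symbols were matched for 57532 of 58288 identifiers. From the counts, edgeR 4.0.16 (R 4.3.3) was used with TMM normalization, filterByExpr (minimum count 10, minimum total 15), the quasi-likelihood test and Benjamini-Hochberg adjustment, for TNF-α against vehicle within each cell form and, with all 12 libraries, for the difference of the responses. Fold changes used a prior count of 0.125, and standard errors were taken from the log2 fold change and F. An exact permutation test of 3 against 3 cannot go under 0.1 and was not used. The fits were also run on simulated data, whose spread between libraries was set below that of the promyelocyte and difference fits. No result given here rests on those runs.

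The members and the gene lists were chosen with earlier results of these data known. Genes named from each list were the called genes with the largest rise and fall in each cell form whose mean was 1 or more on the log2 CPM scale, and for each member the 3 genes of most similar profile (prior count 2). SPI1, HVCN1 and RAC3 were added after their values were seen. Some genes are not reported here and were left out of the lists. Alternatives were DESeq2 1.42.0 and its size factors, no filter, a replicate block, GC and length offsets, thinned counts, 1 fit of 12 libraries, NCF1 summed with its copies, and each library left out. Scaling by library totals was added after seeing the data. Counts of read pairs without molecular identifiers are not independent molecules, and floors of 3 counts cover counting error only.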

Additional observations from a re-analysis of the deposited data

Results flagged for a closer look

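Among the members and the pathway genes named in the report, those whose response to TNF-α differed between granulocytes and promyelocytes, by the edgeR test of the difference itself over 12 libraries, are given here with that difference on the log2 scale (granulocytes minus promyelocytes). Other genes of the pathway lists also passed this test and are not named. Among the members these were CYBB (-0.92), NCF1 (-0.54), CYBA (0.76) and RAC1 (0.38), with adjusted p from 4.59e-10 to 0.00531. Of the genes around them, IRF8 had the widest gap (4.19, adjusted p = 4.27e-11), followed by ME1 (2.71, adjusted p = 6.40e-17). HVCN1 (1.09), ARHGAP25 (1.03), SPI1 (0.73), RAC3 (0.72), NFKB1 (0.68), VAV2 (0.58), PRKCD (0.46) and RAP1B (0.23) also had the higher response in granulocytes. CEBPE (-0.71), PAK1 (-0.39), VAV3 (-0.38), CAT (-0.29) and PRKCB (-0.26) had the lower one. RAC3's difference no longer passed with GC and length offsets (0.36), with library totals (0.57) or without granulocyte vehicle replicate 2 or TNF-α replicate 2 or 3, and that of RAP1B did not with size factors (0.18), without the filter (0.15), with the replicate block (adjusted p = 0.0679) or with totals (0.08). No outlier test was run within groups, each of which had 3 libraries. No explanation was tested for these differences, in which cell form and experiment cannot be told apart.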

How the results depend on the processing

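The calls for CYBB and NCF1 in promyelocytes, for CYBA, NCF1, NCF4 and RAC1 in granulocytes, and for the differences of CYBB, NCF1 and RAC1 kept their direction and passed under each alternative run and each left-out library. NCF4's difference passed under DESeq2 size factors (-0.24), no filter (-0.27), DESeq2 (-0.24), GC and length offsets (-0.38, also with the replicate block) and library totals (-0.34), and CYBA's did not under DESeq2 (0.70). CYBA in promyelocytes passed without the filter (-0.21). CYBB in granulocytes was near 0 and turned sign with size factors (0.005), DESeq2 (0.004), the offsets (0.049, also with block) and 1 fit of 12 libraries (0.014), and passed with library totals (-0.13). RAC2 turned sign with the offsets in promyelocytes (0.015, 0.017 with block), granulocytes (-0.11, -0.11) and the difference (-0.12, -0.12), and with totals in granulocytes (-0.10) and the difference (-0.054). ARHGAP25 in granulocytes was -0.075 with totals, IDH1's difference -0.031 without the filter, -0.006 with DESeq2 and -0.10 with totals, and CEBPA's -0.087 with the offsets (also with block). The causes were not tested. Level differences between vehicle groups moved to 4.30 (totals) and 4.32 (offsets) for CYBB, 7.06 for NCF1 summed, 1.35 for NCF4 and 0.39 for RAC1 (offsets). Called list genes in promyelocytes moved from 0 to 1 in the list of homologues and assembly factors (no filter, 12-library fit). In the kinase list they moved from 5 to 3 (block) or 8 (12-library fit), and in the supply list from 5 to 3 (offsets with block).

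Leaving out each library gave -0.40 to -0.049 for CYBA in promyelocytes, -0.10 to 0.006 for NCF4, -0.095 to 0.039 for RAC2, -0.015 to 0.017 for CYBB in granulocytes, -0.022 to 0.083 for RAC2, -0.25 to -0.14 for NCF4's difference (passing without TNF-α promyelocyte replicate 1) and -0.19 to 0.009 for NCF1C's. Without vehicle replicate 2, 1598 genes were called in promyelocytes, against 2405. Same-numbered deviations correlated at -0.15 to -0.01, so no shift shared by replicate number was seen. These values cannot show whether flasks were handled in pairs. With the number as a block, 1833 and 7721 genes were called, CYBB in promyelocytes was 0.96 and no member's call changed. Library totals moved the median of all genes to -0.14 in granulocytes and -0.12 for the difference, and the share of calls that rose from 49.6% to 31.1% and from 58.9% to 30.8%. For the difference that share was 48.4% with size factors, 44.2% without the filter, 45.8% with DESeq2 and 48.8% with the offsets. Depth was lowest for NCF1 in promyelocytes, at 275 to 324 read pairs a vehicle library.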
